A study of Mus musculus with 24 samples.

Results

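The genes described here encode 10 secreted or granule proteins of the exocrine pancreas, measured in 6 organs of Nur77-/- mice relative to wild-type mice. They are Cela2a, Cela3b, Ctrl, Ctrb1, Cpa1, Cpb1, Clps, Pnliprp1, Zg16 and Spink1, and were chosen by symbol in the platform annotation, 10 of the 9834 genes that have a symbol there. Together they have 12 probes, since Cpb1 and Pnliprp1 have 2 each. The choice was made with the spleen ratios of these genes in view, so their spleen values are given as a description without a test. Tests of these genes are given for lung, testis, skeletal muscle, heart and brown adipose tissue. Spleen calls are given only for other gene lists and for all rows, as a description.

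Nur77 is the orphan nuclear receptor encoded by Nr4a1. Total RNA of a Nur77-/- pool and of a wild-type (Nur77+/+) pool of the same organ was hybridised to 2-colour cDNA arrays, 4 arrays for each organ and 24 in all, where replicates 1 and 2 carried the mutant pool in Cy5 and replicates 3 and 4 carried it in Cy3. The design text gives 7 mutant and 7 wild-type mice per pool, the labelling protocol a control pool of 6. Strain, age, sex and the way the gene was disrupted were not stated in the labels read for this work. Each organ was thus compared 4 times between the same kind of pools, and the spread over arrays holds hybridisation error but not the variation between animals. The wild-type channel of heart replicate 2 is labelled skeletal muscle, and heart results are therefore also given without it.

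All values are log2 ratios of mutant over wild type. That direction is inferred, and the files do not state it. Nr4a1 itself, the gene that was disrupted, was below 0 on 21 of the 22 arrays that measured it, with a mean of -0.75 ± 0.21 (SD, n = 4) in spleen, and where its probe lies on the disrupted allele is unknown. Ratios hold no levels, so the identity of each organ could not be checked against the abundance of its markers, and no gene's level can be set against that of another. The arrays held between 13396 and 19455 values for 20205 probes, and array medians over probes lay between -0.78 and 0.67. Array medians given further on are over rows, in which the probes of 1 symbol are averaged. Of 288 possible values of the 12 probes, 241 were measured, between 32 of 48 in skeletal muscle and 46 of 48 in brown adipose tissue. A further 3 values had sizes above 12, in a separate mode of the table, and were treated as missing.

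Acinar cells of the exocrine pancreas make digestive enzymes as inactive precursors, pack them into zymogen granules and release them towards the gut. Transcription of these genes is known to depend on the acinar factor complex PTF1, which holds Ptf1a, an E protein and Rbpjl and recognises an E-box together with a TTTCCC box. None of the 6 organs studied is known to contain acinar cells.

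The 10 genes share a tissue of expression, so the 250 bases before their transcription starts were searched for both parts of this site, on both strands. RefSeq promoter sequences (GRCm38.p6) were available for 7 of the 10 genes. The E-box CACCTG was present in 4 of the 7 (Cela2a, Cela3b, Ctrl and Cpb1), against 17.2% of all 32851 promoters of the same length. The box TTTCCC was present in 3 of the 7 (Cela2a, Cpa1 and Ctrb1), against 21.9% of all promoters. Both were present in Cela2a, and in 3.61% of all promoters. The motifs do not overlap each other in these sequences. The promoters printed are that of the gene with the lowest spleen ratio, that of Ctrl, and that of Cpb1, whose spleen ratio had the opposite sign. Ctrl carried the E-box in 2 places, as did Cela3b, which is not printed. Sequences run 5′ to 3′ on the gene's strand and end at the base before the start, and capitals mark the 2 motifs or their reverse complements. They lie at chr4:141826006-141826255 (Cela2a, minus strand), chr8:105933863-105934112 (Ctrl, minus strand) and chr3:20275734-20275983 (Cpb1, minus strand).
Cela2a: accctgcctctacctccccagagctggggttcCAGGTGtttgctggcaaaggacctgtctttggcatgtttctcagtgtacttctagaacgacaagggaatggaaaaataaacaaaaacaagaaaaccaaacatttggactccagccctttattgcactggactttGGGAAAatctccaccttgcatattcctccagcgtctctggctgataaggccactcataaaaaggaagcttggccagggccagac
Ctrl: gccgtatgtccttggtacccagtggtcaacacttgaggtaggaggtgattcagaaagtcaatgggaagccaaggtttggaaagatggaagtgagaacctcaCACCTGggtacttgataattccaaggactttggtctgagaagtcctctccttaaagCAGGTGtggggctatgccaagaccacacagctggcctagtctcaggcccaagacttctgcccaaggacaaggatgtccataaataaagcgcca
Cpb1: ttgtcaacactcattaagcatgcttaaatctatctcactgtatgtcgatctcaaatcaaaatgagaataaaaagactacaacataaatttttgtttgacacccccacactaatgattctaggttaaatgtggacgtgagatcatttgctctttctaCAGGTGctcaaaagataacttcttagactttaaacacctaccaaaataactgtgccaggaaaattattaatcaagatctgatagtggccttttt
The E-box was thus present in the promoters of Cela2a, Cela3b and Ctrl, which had low spleen ratios. It was also present in that of Cpb1, the only member with a high spleen ratio. A match of letters is a description and does not show that a factor binds there.

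In spleen, 9 of the 10 genes were far lower in the mutant pool on every array, with both dye orientations, and Cpb1 was higher. All 10 genes had 1 sign on every array that measured them, where 19.8% of all 11217 rows did. Since the choice of genes used this contrast, nothing is read from that count. In bulk RNA, fewer cells of a type and less RNA per cell cannot be told apart.

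The lowest ratio of all 11217 spleen rows was that of Cela2a, a pancreatic elastase. Its ratios were -5.59 and -7.25 on the Cy5 arrays (mutant pool in Cy5) and -6.29 and -7.59 on the Cy3 arrays, a mean of -6.68 ± 0.91 (SD, n = 4), which is a 103-fold lower level. Ctrl, a chymotrypsin-like protease, followed with -5.34, -6.99, -5.52 and -7.07 on replicates 1 to 4. The values of Cela2a spanned 2.00 log2 units and those of Ctrl 1.73, and both genes lay lower on replicates 2 and 4 than on 1 and 3.

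Ctrb1, the precursor of chymotrypsin B, had the tightest values, -5.74, -5.67, -5.97 and -5.94 (mean -5.83 ± 0.15, SD, n = 4), a 56.8-fold lower level. Cela3b, the other elastase, had -4.18, -4.04, -3.96 and -3.32 (mean -3.87 ± 0.38, SD, n = 4), a 14.7-fold lower level. The values of the elastase genes did not overlap each other.

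The carboxypeptidases went opposite ways. Cpa1, which trims aromatic and aliphatic residues from the ends of peptides, had -3.42, -3.25, -2.65 and -4.43, a 10.8-fold lower level, the smallest decrease of the 9. Cpb1, which trims basic residues, was above 0 on each of the 3 arrays that measured it. Its better covered probe had 2.53, 2.17 and 3.06 on replicates 1, 3 and 4, and its other probe had 0.76 and 1.04 on replicates 1 and 3. Both Cpb1 probes were missing on replicate 2, and none of the measured values was negative. The mean over its probes was 2.10 ± 0.83 (SD, n = 3). Both probes scattered widely outside spleen. The better covered one ran from -2.45 in heart to 1.84 in testis, and the other from -2.38 in brown adipose tissue to 2.64 in testis.

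The genes of fat digestion were low as well. Clps, the cofactor that anchors pancreatic lipase at the fat surface, had -4.70, -8.25, -4.74 and -5.11, a mean of -5.70 ± 1.71 (SD, n = 4), the widest spread of the 9 genes. Its values other than that of replicate 2 lay between -5.11 and -4.70. Pnliprp1, a relative of pancreatic lipase, gave different values on its 2 probes. The probe measured on all spleen arrays had -5.18, -5.08, -5.12 and -4.20 (mean -4.90 ± 0.47, SD, n = 4). The other probe was measured on replicate 3 only and had -0.01 there, which moved the gene's mean to -4.26.

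The remaining members are not digestive enzymes. Zg16, a lectin of the zymogen granule membrane, had -5.08, -5.77, -5.26 and -4.86 (mean -5.24 ± 0.39, SD, n = 4), a 37.9-fold lower level. Spink1, the trypsin inhibitor packed with the enzymes, had -3.68, -4.90, -2.45 and -3.40 (mean -3.61 ± 1.01, SD, n = 4), a 12.2-fold lower level. The granule protein, the inhibitor and the enzymes thus all lay below every value of Cpb1.

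**Figure D1:**
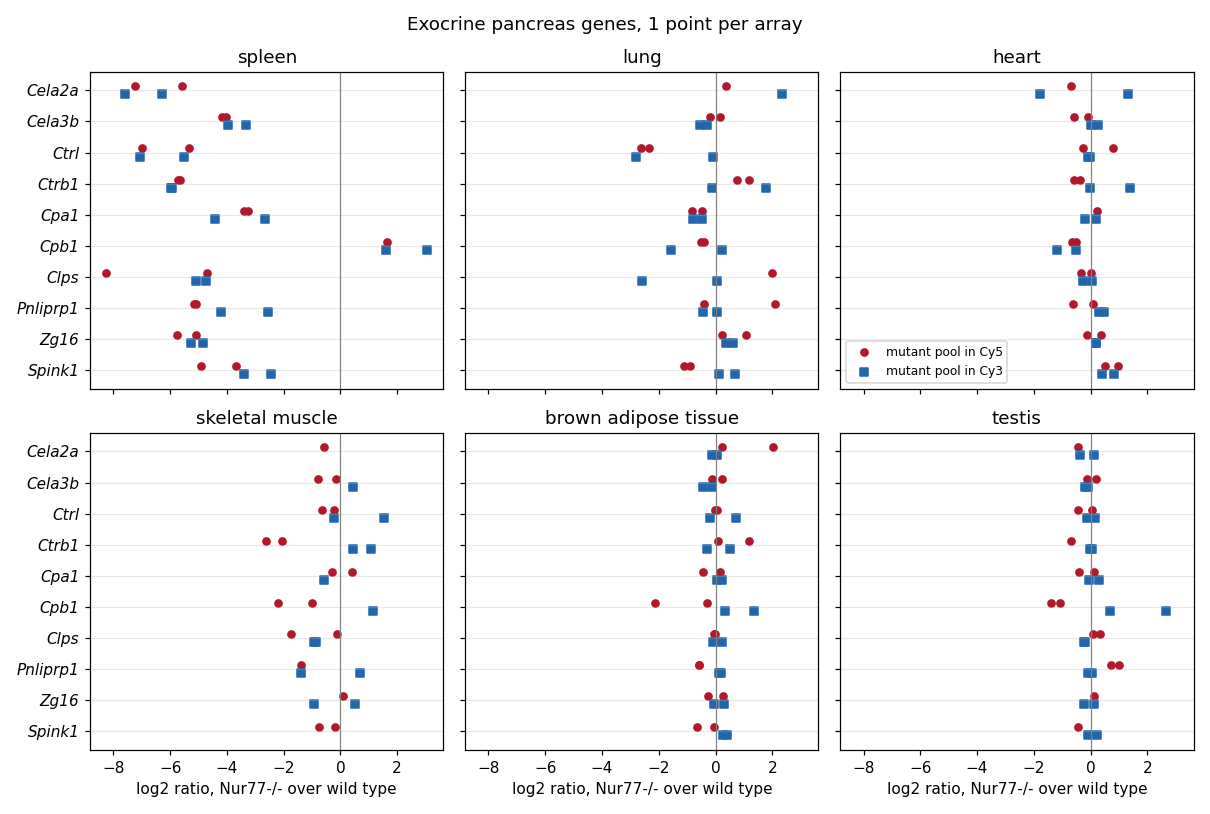
Log2 ratio of Nur77-/- over wild type (horizontal axis) of the 10 genes (rows) on each array, in 1 panel per organ, with the mutant pool in Cy5 as circles and in Cy3 as squares; genes with 2 probes are shown as the mean of those measured. In spleen 9 genes lie between -8.25 and -2.45 with both dyes and Cpb1 lies above 0, and in the other organs most points lie near 0.

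Each gene had the same sign in spleen with both dye orientations. Cela2a averaged -6.42 on the Cy5 arrays and -6.94 on the Cy3 arrays, Ctrl -6.17 and -6.29, Ctrb1 -5.70 and -5.95, Zg16 -5.42 and -5.06, and Cpa1 -3.33 and -3.54. Cela3b averaged -4.11 and -3.64. The gap between orientations was larger for Clps (-6.48 in Cy5 and -4.92 in Cy3) and Spink1 (-4.29 and -2.93). The Pnliprp1 probe measured on all 4 arrays had -5.13 and -4.66, and the mean with the second probe, measured on replicate 3 only, had -5.13 and -3.38. Across the 9 lower genes, the means of the orientations had a Pearson r of 0.80, given as a description over genes that share arrays.

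On each spleen array the median of the measured members was -4.89, -5.67, -4.35 and -4.65 (replicates 1 to 4), against -0.02, -0.32, -0.22 and 0.34 for all rows of the same array. The members were chosen with the spleen ratios in view, so these medians are set side by side as a description. On the 20 arrays of the other organs the member median lay between -0.70 and 0.88, the extremes both in skeletal muscle, where the array medians were -0.46 and 0.69 on the same arrays.

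**Figure D2:**
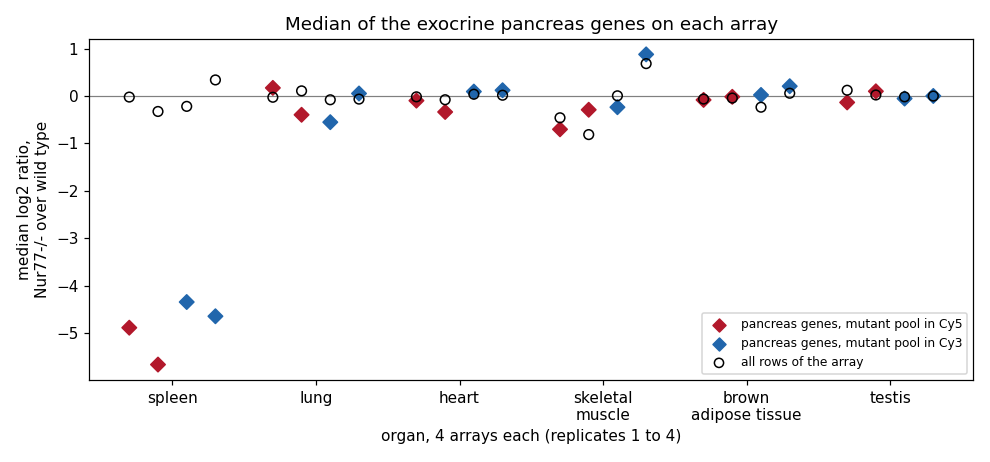
Median log2 ratio of the measured exocrine pancreas genes (diamonds, coloured by the dye of the mutant pool) and of all rows (open circles) on each of the 24 arrays, grouped by organ (horizontal axis). The 4 spleen diamonds lie between -5.67 and -4.35 and all other diamonds between -0.70 and 0.88.

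Few rows outside the members were as low on every spleen array. With all 4 arrays below -2, a limit chosen after the values were seen, 15 rows remained, 0.134% of those tested. Of these, 9 were members, 3 were probes without a symbol, and the others were Tff2, Akr1b8 and Rpl35. The members were chosen with these ratios in view, so nothing is read from their share of the 15. Only 1 row was above 2 on all 4 spleen arrays. The probes of Zg16, Cela2a and Ctrl carry nearby numbers (7238, 7239 and 7242). Of 11 probes within 5 numbers of these, outside the pancreas lists and with any spleen value, 4 had a mean below -2. They were a probe named Amy2, a pancreatic amylase symbol that the lists do not hold, a probe of Ftcd, and probes without a symbol. The part of probe position in the ratios was not tested. In the other organs, rows below -2 on all 4 arrays numbered 1 in lung, 2 in skeletal muscle and 0 in testis, heart and brown adipose tissue.

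The other exocrine genes listed had spleen ratios closer to 0 than the lower members. Of 41 further genes listed for the acinar cell, 14 had a probe and 8 could be tested in spleen, of which 2 were lower and 0 higher by limma's adjusted p. All gene lists were chosen with earlier results of these data known, so their spleen calls are a description and nothing is read from them. Of all spleen rows 1.53% passed, 0.936% lower and 0.597% higher. With the 4 spleen arrays fitted alone, 0 of the 11217 rows passed, these genes and the stomach marker named further on included. The median of the 8 was -1.14, against -0.07 for all spleen rows. Sycn, a zymogen granule protein, had -2.64, -1.77 and -1.70 on 3 arrays. Pla2g1b, the pancreatic phospholipase, had -2.77, -2.08 and -0.30 on 3 arrays. Klk1, a tissue kallikrein also made outside the pancreas, averaged -1.69 ± 1.33 (SD, n = 4), and Pnliprp2, a lipase relative, -1.63 ± 1.29 (SD, n = 4) with 1 positive array. Pla2g1b and Klk1 are the 2 that were lower by the adjusted p. Erp27, an endoplasmic reticulum protein abundant in acinar cells, averaged -0.64 ± 0.24 (SD, n = 4).

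The others of this list lay near or above 0 or had few values. Rbpjl, the PTF1 subunit, averaged 0.12 ± 1.11 (SD, n = 3), the water channel Aqp8 0.09 ± 0.70 (SD, n = 3), and the dipeptidase Dpep1 0.47 ± 1.34 (SD, n = 4). Nr5a2, a nuclear receptor of acinar cells, had -3.47 and -1.30 on the 2 arrays that measured it, and the protein disulfide isomerase Pdia2 had -1.14 and -1.55. Ctrc, chymotrypsin C, had 2.50 and -0.57, Cuzd1 -0.41 and 1.07, Rnase1 0.93 and -0.03, and Gp2, the main granule membrane protein, 2.94 on 1 array. The further exocrine genes thus lay on both sides of 0. A probe named Amy2, the symbol of the near-identical pancreatic amylase genes, was found after its values were seen and had -3.29, -2.79 and -5.01 on 3 spleen arrays.

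Markers of islet, duct and spleen cells did not pass the test in spleen, and 1 stomach marker did, which is given as a description only. Of the 26 genes of the islet list 5 had a probe and 3 were tested in spleen. Of these 0 were lower or higher, with a median of -0.12. Sst, the islet hormone somatostatin, averaged -0.32 ± 0.26 (SD, n = 3). Chgb had -0.76 and -2.79 and Pax6 1.87 and 0.88 on 2 arrays each. The hormone genes Ins1, Ins2, Gcg and Ppy of this list had no probe assigned to their symbol alone. Of the duct list 5 were tested and 0 passed, with a median of 0.70, and Cftr, the chloride channel of duct cells, averaged 0.77 ± 0.14 (SD, n = 3). The keratins Krt19 (1.71 and 4.94) and Krt8 (4.92 and 1.62) were above 0 on the 2 arrays that measured each. Better covered duct genes had values on both sides of 0, and are named outside the rule that asks for 1 sign. Sox9 averaged -0.37 ± 1.37, Epcam 0.70 ± 1.69 and Car2 0.18 ± 0.41 (SD, n = 4 each), and Krt7 1.02 ± 2.01 (SD, n = 3). Of the stomach list 2 were tested. Tff2 is a trefoil peptide made by stomach mucous neck cells and found in pancreas too. It had -3.42, -5.72, -3.69 and -3.72 and was lower by the adjusted p. Atp4a, the acid pump of parietal cells, lay on both sides of 0 and averaged -0.19 ± 0.26 (SD, n = 4). It is named outside the rule that asks for 1 sign in spleen. Muc6 (2.22 and 1.58) and Ctse (1.55 and 1.40) of this list were above 0 on the 2 arrays that measured each. Of the list of spleen blood and immune cells 13 were tested and 0 passed, with a median of -0.00325 and a range from -1.35 to 0.78. In that list Cd74, a chaperone of antigen presentation, averaged -0.79 ± 0.61 and Blk, a B cell kinase, 0.78 ± 0.59, and the red cell genes Hba-a1 and Alas2 -0.52 ± 0.19 and -0.46 ± 0.24 (SD, n = 4 each). Whether pancreatic tissue was present in either spleen pool was not tested.

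**Figure D3:**
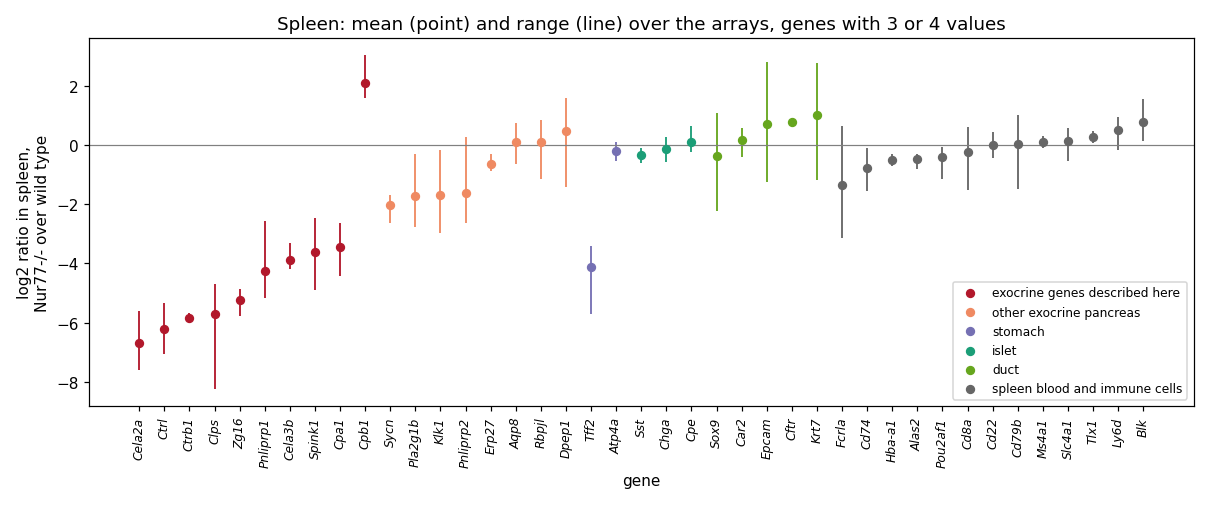
Spleen log2 ratio of Nur77-/- over wild type (vertical axis) of single genes (horizontal axis), as the mean (point) and the range over arrays (line), for genes with 3 or 4 spleen values, coloured by list. The 9 lower members and Tff2 have means of -3.44 or less, Sycn, Pla2g1b, Klk1 and Pnliprp2 lie between -2.04 and -1.63, and the means of the islet, duct and spleen lists lie between -1.35 and 1.02.

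In the 5 other organs none of the 10 genes passed the test. Of 50 pairs of gene and organ 47 could be tested, and the fitted ratio was smaller than 1 in size in 46 of them, with a median size of 0.19. The 95% intervals are wide, and in 27 of the 47 pairs they reach beyond a 2-fold difference in at least 1 direction. At an unadjusted p under 0.05, 4 of the 47 pairs passed, 3 in lung and 1 in heart.

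In lung, 0 of 9 tested genes passed (limma, lowest adjusted p = 0.0772), and 0.0809% of all 12365 rows did (0.00809% higher and 0.0728% lower). The exception in size was Ctrl, which had -2.63 and -2.36 on the Cy5 arrays and -2.79 and -0.10 on the Cy3 arrays. It was low on 3 arrays and near 0 on replicate 4. Its fitted ratio was -1.97 ± 0.41 (SE), a 3.92-fold lower level, with a 95% interval from -2.82 to -1.12, and this gene had the lowest adjusted p above. That interval uses a spread estimated over the arrays of all organs, and the SD over the 4 lung arrays was 1.26. Without replicate 4 of every organ, the array near 0 in lung, the ratio was -2.59 and passed (limma, adjusted p = 0.0128). Without replicate 1, 2 or 3 it did not pass (limma, adjusted p = 0.338, 0.377 and 0.574). With lung fitted alone it did not pass either (limma, adjusted p = 0.839).

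Ctrb1, the other chymotrypsin gene, lay on the other side of 0 in lung, at 0.75, 1.19, 1.77 and -0.11, with a fitted ratio of 0.90 ± 0.46 (SE; adjusted p = 0.781, limma). Cpa1 was below 0 on all 4 lung arrays (-0.84, -0.46, -0.78 and -0.46), with a fitted ratio of -0.64 ± 0.28 (SE; unadjusted p = 0.0326, adjusted p = 0.676, limma). Zg16 was above 0 on all 4 (0.24, 1.08, 0.61 and 0.35), with 0.57 ± 0.26 (SE; unadjusted p = 0.0423, adjusted p = 0.722, limma). With Ctrl these are 3 of the 9 tested genes with 1 sign on all lung arrays, where 17.3% of all lung rows had 1 sign. The unadjusted p was under 0.05 for the same 3, against 6.63% of all lung rows.

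The other lung values scattered around 0. Cela3b averaged -0.21 ± 0.30 and Spink1 -0.30 ± 0.86 (SD, n = 4 each), and Spink1 lay below 0 on the Cy5 arrays (-1.13 and -0.91) and above 0 on the Cy3 arrays (0.68 and 0.13). Clps had 2.00, -2.60 and 0.05 on 3 arrays, Cpb1 averaged -0.55 ± 0.74 (SD, n = 4), and Cela2a had 0.37 and 2.34 on 2 arrays, too few for the test. The better covered Pnliprp1 probe averaged -0.13 ± 0.40 (SD, n = 4), while the other had 3.86 and -0.38. The median of the 9 fitted ratios was -0.21, against -0.01 for all rows.

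In skeletal muscle, 0 of 8 tested genes passed (limma, lowest adjusted p = 0.359; 0 at an unadjusted p under 0.05), although 5.59% of all 11974 rows did (3.36% higher and 2.23% lower; 20.2% at an unadjusted p under 0.05). Ctrb1 differed by dye orientation here, at -2.05 and -2.61 on the Cy5 arrays and 0.45 and 1.09 on the Cy3 arrays. Clps was below 0 on all 4 arrays (-0.11, -1.75, -0.87 and -0.94), with the lowest fitted ratio of the organ, -0.92 ± 0.56 (SE). It was the only member with 1 sign on at least 3 muscle arrays, where 22.6% of all rows had 1 sign. Ctrl (-0.65, -0.22, -0.23 and 1.54) had values on both sides of 0, and Cela3b averaged -0.16 ± 0.61, Cpa1 -0.15 ± 0.50 and Zg16 -0.11 ± 0.74 (SD, n = 3 each). Cpb1 (-0.67 ± 1.70) and Pnliprp1 (-0.70 ± 1.19) were the most scattered of the genes with 3 values (SD, n = 3 each). Cela2a (-0.58 on 1 array) and Spink1 (-0.75 and -0.20 on 2 arrays) could not be tested. The median of the fitted ratios was -0.31, against -0.16 for all rows.

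In heart, 0 of 10 genes passed (limma; percent of all 13844 rows: 0; 2.05% of rows and 1 member at an unadjusted p under 0.05). That member was Spink1, above 0 on all 4 arrays (0.98, 0.51, 0.81 and 0.40), with a fitted ratio of 0.67 ± 0.30 (SE; unadjusted p = 0.0385, adjusted p = 1, limma). Cpb1 was below 0 on all 4 arrays (mean -0.71 ± 0.33, SD, n = 4), but its 2 probes differed, with means of -1.05 and 0.18. These were the members with 1 sign on every heart array, where 16.4% of all rows had 1 sign. Clps averaged -0.14 ± 0.19, Zg16 0.16 ± 0.20, Ctrl 0.10 ± 0.47 and Cela3b -0.09 ± 0.35 (SD, n = 4 each). Ctrb1 averaged 0.10 ± 0.89 and Pnliprp1 0.06 ± 0.47 (SD, n = 4 each), and Cela2a -0.38 ± 1.56 and Cpa1 0.08 ± 0.24 (SD, n = 3 each). Without heart replicate 2, again 0 members passed, of 8 that could be tested, and the median of their fitted ratios was 0.12, against 0.08 for the same 8 genes with that array. Of the values in the separate mode 2 belong to heart, Cela2a at 16.47 on replicate 1 and the less covered Pnliprp1 probe at -16.80 on replicate 3.

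In brown adipose tissue, 0 of 10 genes passed (limma; percent of all 15223 rows: 0; 0.67% of rows and 0 members at an unadjusted p under 0.05). The values were tight for Clps (0.02 ± 0.14), Zg16 (0.06 ± 0.27), Cela3b (-0.11 ± 0.27) and Cpa1 (-0.01 ± 0.30; SD, n = 4 each). Cela2a had 2.03 on replicate 1 and lay between -0.11 and 0.23 on the other arrays. Cpb1 ran from -2.14 to 1.37, below 0 on the Cy5 arrays and above 0 on the Cy3 arrays. Ctrl averaged 0.14 ± 0.40, Ctrb1 0.36 ± 0.64, Pnliprp1 -0.22 ± 0.43 and Spink1 -0.01 ± 0.48 (SD, n = 4 each). No member had 1 sign on every array, where 14.4% of all rows did.

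In testis, 0 of 10 genes passed (limma; percent of all 13564 rows: 0; 3.63% of rows and 0 members at an unadjusted p under 0.05). Ctrl averaged -0.08 ± 0.26, Cela3b -0.06 ± 0.17, Cpa1 -0.0035 ± 0.30 and Clps -0.00075 ± 0.28 (SD, n = 4 each). Cela2a averaged -0.23 ± 0.31, Ctrb1 -0.22 ± 0.42, Spink1 -0.10 ± 0.34 and Zg16 -0.00267 ± 0.20 (SD, n = 3 each). Cpb1 again differed by orientation, with -1.25 on average in Cy5 and 1.67 in Cy3. The less covered Pnliprp1 probe had 2.91 and 1.27 on the 2 arrays that measured it, while the better covered one averaged -0.19 ± 0.49 (SD, n = 4). No member had 1 sign on every array, where 16.7% of all rows did.

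**Figure D4:**
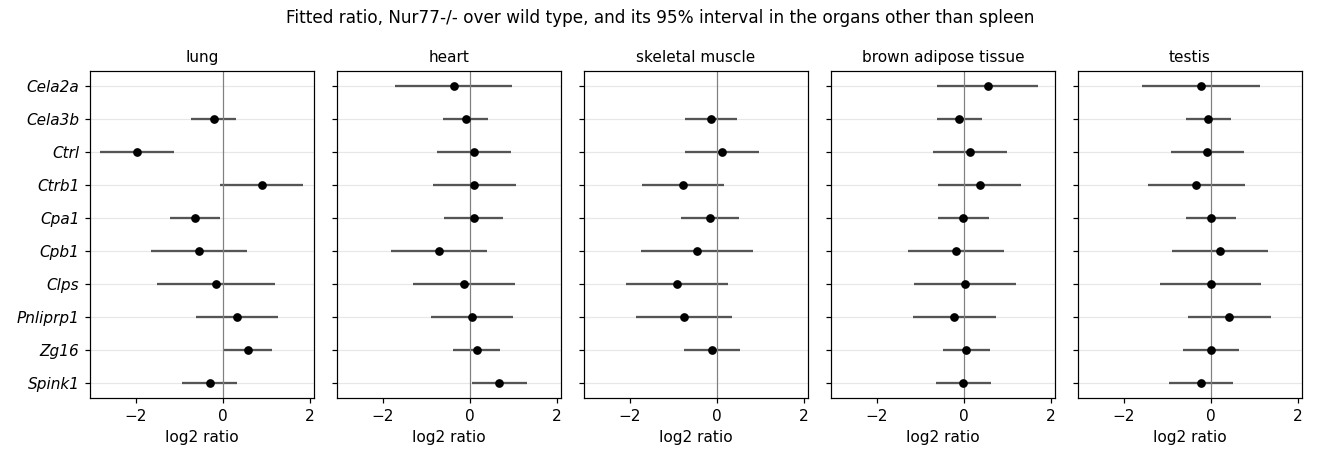
Fitted log2 ratio of Nur77-/- over wild type (points, horizontal axis) with its 95% interval (lines) for each gene that could be tested (rows) in the organs other than spleen (panels). All fitted ratios lie between -1.97 and 0.90, and the lowest end of an interval is -2.82, for Ctrl in lung.

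Taken over the 5 organs at once, 0 of the 8 genes that could be tested in all of them passed (limma; 0.315% of 8875 rows did, 0.225% higher and 0.0901% lower; 8.78% of rows and 0 members at an unadjusted p under 0.05). The mean ratio over the organs was lowest for Cpb1 (-0.34 ± 0.24, SE) and Ctrl (-0.34 ± 0.18) and highest for Zg16 (0.13 ± 0.13). Differences among the 5 organs did not pass for any of the 8 either (limma's F test, 0.732% of 8875 rows passed). Ctrl had the lowest adjusted p between organs (limma's F test, adjusted p = 0.229), and was the only member under 0.05 unadjusted, where 8.18% of rows were.

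The dye term was fitted on the 20 arrays without spleen for the 9 genes with at least 14 values there. None passed (limma; 0.591% of 13365 rows did, 0.0224% higher and 0.569% lower), and 2 of the 9 had an unadjusted p under 0.05, where 14.4% of rows did. These were Cpb1, with a term of -1.36 ± 0.49 (SE; Cy5 arrays minus Cy3 arrays; adjusted p = 0.239, limma), and Spink1, with -0.64 ± 0.27 (SE; adjusted p = 0.297, limma). The smallest term was that of Cpa1, -0.01 ± 0.21 (SE).

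The likeness over the 24 arrays was set by the spleen arrays, whose ratios chose the genes. Across them each of the 9 lower genes correlated with the mean of the other members at a Pearson r between 0.89 (Pnliprp1, 23 arrays) and 0.95 (Cela3b, 23 arrays), and Cpb1 at -0.54 (22 arrays). On the 20 other arrays r was -0.62 for Zg16 and 0.45 for Cpb1, and lay between 0.02 (Spink1) and 0.17 (Cela3b) for the other genes. Outside the members, the symbols most like the member mean over at least 20 of the 24 arrays were Akr1b8, an aldo-keto reductase (r = 0.95), the ribosomal protein gene Rpl35 (0.92), Zfp42, a zinc finger factor of stem cells (0.92), and Tff2 (0.89). Ephx1, an epoxide hydrolase (0.84), Adgre5 (0.84), Rilpl1 (0.84), Tctn2 (0.83), Gins3 (0.80) and Nqo2 (0.80) followed. Of these 10, Adgre5 and Rilpl1 had 1 spleen value each and Ephx1 and Nqo2 had 2, and 10 rows without a symbol ranked above the last of them. The median r over all 9687 candidates was 0.05. Without spleen the most alike were Hexim1 (0.84), Lrtm2 (0.83), Itgbl1 (0.83), Prodh (0.82) and Ypel5 (0.82), none of them among the first 10. They are the top of 11391 candidates, whose median r was 0.17, and 4 rows without a symbol ranked above the last of them.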

How the data were processed

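The members and gene lists were chosen with earlier results of these data known. Each value is a log2 ratio of a probe on a 2-colour cDNA array, as the authors deposited it. Labelling was indirect, from 20 µg total RNA, per the labels' protocols. How background and normalization were handled, and why cells are empty, is not given in the sources used here. Base 2 was inferred from the values. Sizes above 12 (1.24% of values, none between 9.94 and 15.70) were treated as missing. Probes of 1 symbol (13891 of 20205) were averaged per array, which gave 16148 rows. The Entrez numbers of 13855 of these 13891 probes are in RefSeq's table, which changed 0 symbols. Testing a row in an organ required 3 of its 4 arrays, with each dye orientation represented.

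Ratios were fitted with limma 3.58.1 (lmFit, eBayes; R 4.3.3), 6 organ coefficients and 1 dye term over 24 arrays, with Benjamini-Hochberg adjustment over all rows tested in an organ and a threshold of 0.05. P-values measure hybridisation error between pools, and the number of arrays limits precision. SD is over arrays, SE from the fit. The procedure was tested on simulated data. Genes named are all members, the listed pancreas genes, up to 4 genes of each other list with 1 sign in spleen, and the rows most alike over arrays. Others are said to be outside this rule. Alternatives were other weights, centring, scaling, dye terms, filters, single probes and left-out arrays.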

Additional observations from a re-analysis of the deposited data

Results flagged for a closer look

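In 3 of 44 groups of 4 arrays a single array stood apart from the other 3 by Dixon's criterion. About 1 group in 20 would by chance. Clps in spleen had -8.25 on replicate 2, far below the other arrays. Ctrl in lung had -0.10 on replicate 4, far above the others. Cela2a in brown adipose tissue had 2.03 on replicate 1, above the others.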

How the results depend on the processing

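The number of members past the test was 0 in testis, skeletal muscle, heart and brown adipose tissue. It was also 0 over the 5 organs, between organs and for the dye term. Each of these counts was 0 under every alternative run for it. With complete rows only, 1 member could be tested over the 5 organs, between organs and for the dye term, and 3 in skeletal muscle. With organs fitted alone no row of any organ passed, so the member counts of 0 there decide nothing. In lung the number of members past the test was 1 (Ctrl) with array weights, with the spleen arrays left out of the fit and with arrays centred and scaled. It ranged from 0 to 1 when replicates 1 to 4 were dropped in turn, with 1 without replicate 4. The adjusted p of Ctrl in lung ran from 0.0128 to 0.839 over the 16 alternatives and its ratio from -2.59 to -1.58. It was 0.043 with array weights, 0.0475 without the spleen arrays, 0.027 after centring and scaling and 0.839 with lung fitted alone. The cause was not tested. Replicate numbers coincide with the dye orientation. Deviations of arrays with the same number correlated at a median of 0.04 (9 of 60 pairs above 0.1), against -0.03 for different numbers (10 of 180 above 0.1). Not every pair was above 0.1, so no pairing was taken. This rule is strict and cannot exclude dependence between arrays with the same number. With the replicate block in place of the dye term the member counts were 0 in the 5 organs and the lung count over all rows was 8.

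Taking the single probes of Pnliprp1 and Cpb1, an alternative chosen after seeing the data, gave Pnliprp1 means of 1.74 and -0.13 in lung and of -0.01 (1 array) and -4.90 in spleen, and Cpb1 means of 0.90 and 2.59 in spleen. No ratio changed its direction together with its call. With probes averaged, the 9 lower genes kept negative spleen ratios under the alternatives run, from -7.07 to -2.31, and the smallest sizes came after centring and scaling, where Cela2a had -4.54 and Cpa1 -2.31. Cpb1 then stayed above 0, between 1.14 and 2.35. The counts over all rows varied more. They ran from 0 to 25 in lung (10 in the fit reported), 0 to 305 in spleen (172), 0 to 7 in testis (0), 0 to 959 in skeletal muscle (669), 0 to 19 in heart (0) and 0 to 6 in brown adipose tissue (0), with 0 in every organ when it was fitted alone. Over the 5 organs they ran from 2 to 113 (28), between organs from 9 to 125 (65) and for the dye term from 2 to 122 (79).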

Other observations

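Probes with numbers near those of the members, outside the pancreas lists, had mixed spleen ratios. Of 65 such probes within 5 numbers of a member probe and with at least 3 spleen values, the median was -0.21, and 4 lay below -2. With any number of spleen values there were 87, with a median of -0.15 and 8 below -2. Of the 6 neighbours in the pancreas lists, most of them members themselves, 5 lay below -2, with a median of -5.07. The low ones outside the lists were singled out after their values were seen. With 3 arrays each they were the probe named Amy2 (-3.70), a pancreatic amylase symbol not in the lists, and a probe without a symbol (-5.29). Probes of Sardh, an enzyme of sarcosine breakdown (-4.46), and Gtf2h5, a subunit of transcription factor TFIIH (-3.80), also had 3 arrays each. Those with fewer arrays were a probe without a symbol (-4.46) and Ftcd, an enzyme of histidine breakdown (-2.37), over 2 arrays each, and Eif2s3x, a translation initiation factor subunit (-7.51), and a probe without a symbol (-2.34) on 1 array each. Whether probe numbers follow the position on the slide is not known here, and a part of position in these ratios was not tested.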
